A study of Homo sapiens with 24 samples.

Results

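GDF15, ANGPTL7, SAMD11, RENBP and SEMA3F are described as a set because each had its highest mean level with the fraction of senescent medium below 3 kDa in these data. They are 5 of the 58735 genes in the deposited table, picked by gene symbol. Their levels with that fraction chose them, so those levels and every difference from it are given for them as descriptions, without a test. Tests were run for these genes only between the other 7 media.

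The cells were OVCAR8, an established human cell line from high grade serous ovarian cancer. They were cultured in ultra-low attachment plates, to which cells do not stick. There were 24 libraries of polyA RNA, 3 for each of 8 media. Fresh medium, medium conditioned by proliferating cells that had received vehicle (proliferative medium) and medium conditioned by cells driven into senescence with cisplatin (senescent medium) made up 3 groups. Senescent medium was also boiled, or separated by size at 3 kDa into the lighter part (small fraction) and the heavier part (large fraction). Cells pre-treated with proliferative or with senescent medium, for which the labels name no later medium, made up the remaining 2 groups. Per the labels, conditioned medium was diluted 1 to 1 with RPMI containing 5% serum, a protocol text shared by all the groups. The line is a single cancer line, and the labels do not name the cells that conditioned the media or say that the 3 replicates were separate cultures, so the p-values may measure only technical spread.

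GDF15 encodes a secreted, distant member of the TGF-beta superfamily that many cells release under stress. Its transcription is known to respond to ATF4, the effector of the integrated stress response, and it circulates as a hormone that acts on the brainstem receptor GFRAL with RET. ANGPTL7 is a secreted angiopoietin-like protein best known from the cornea and the outflow tissue of the eye. SAMD11 encodes a nuclear protein with a SAM domain that works with Polycomb repressive complex 1 in photoreceptors. RENBP is N-acylglucosamine 2-epimerase, which interconverts N-acetylglucosamine and N-acetylmannosamine, the precursor of sialic acid. SEMA3F is a secreted class 3 semaphorin, a repellent guidance cue for axons and vessels that binds neuropilins and plexins.

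The starts of GDF15, ANGPTL7 and RENBP are shown because these 3 genes had the largest excess with the small fraction. Each window holds 250 bases before and 50 after the start site in RefSeq on GRCh38.p14. Capitals mark a match on either strand to 1 of 9 searched motifs: the TATA box TATAAA, the GC box GGGCGG, the AP-1 site TGANTCA, the cAMP response element TGACGTCA, the ATF4 composite site TGATGNAAN, the antioxidant response element core TGACNNNGC, the aryl hydrocarbon receptor core GCGTG, the hypoxia response core ACGTG and the EGR1 site GCGNGGGCG, which can overlap a GC box. The windows lie at chr19:18385908-18386207 on the plus strand for GDF15, at chr1:11189105-11189404 on the plus strand for ANGPTL7 and at chrX:153944594-153944893 on the minus strand for RENBP.
GDF15: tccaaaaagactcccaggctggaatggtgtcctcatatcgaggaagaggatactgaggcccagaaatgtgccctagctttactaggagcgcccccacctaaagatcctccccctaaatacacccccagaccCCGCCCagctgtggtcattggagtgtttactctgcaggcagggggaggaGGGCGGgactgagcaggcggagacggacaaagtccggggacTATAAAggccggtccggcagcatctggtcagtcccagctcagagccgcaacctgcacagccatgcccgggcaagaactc
ANGPTL7: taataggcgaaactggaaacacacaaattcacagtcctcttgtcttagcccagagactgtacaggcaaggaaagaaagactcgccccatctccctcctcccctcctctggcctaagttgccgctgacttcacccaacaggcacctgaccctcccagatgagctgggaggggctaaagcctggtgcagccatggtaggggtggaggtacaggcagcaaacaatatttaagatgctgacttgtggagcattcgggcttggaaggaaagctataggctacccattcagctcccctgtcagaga
RENBP: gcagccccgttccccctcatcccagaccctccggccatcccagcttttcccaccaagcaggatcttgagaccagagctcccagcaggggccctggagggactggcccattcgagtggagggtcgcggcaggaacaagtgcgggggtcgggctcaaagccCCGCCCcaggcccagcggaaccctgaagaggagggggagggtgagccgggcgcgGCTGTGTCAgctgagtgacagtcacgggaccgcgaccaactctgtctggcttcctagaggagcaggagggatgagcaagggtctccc
In the GDF15 window the TATA box lay 29 bases before the start, a motif held by 11.5% of the 35116 windows of this length. GC boxes stood at 119 and 70 bases before it, and 45.0% of all windows hold at least 1. The ANGPTL7 window held none of the 9 motifs. The RENBP window held a GC box 91 bases and an antioxidant response element core 37 bases before the start, the latter found in 13.3% of windows. None of the 3 windows matched the ATF4 composite site, which 3.61% of windows hold, and that says only that these letters are not in these 300 bases. GC content was 59.3% for GDF15, 53.3% for ANGPTL7 and 67.0% for RENBP, beside a median of 58.7% over all windows. The SAMD11 window (chr1:925481-925780, plus strand, 75.0% GC) held 1 aryl hydrocarbon receptor core, a motif of 36.5% of windows, and the first of 3 windows of SEMA3F (chr3:50154808-50155107, plus strand, 81.3% GC) held 12 GC boxes and 4 EGR1 sites, the latter in 9.43% of windows.

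Library totals ran from 14718120 to 21956598 counts, and from 16176642 to 18754159 in the 3 small-fraction libraries. Mitochondrial genes took 6.05% to 6.85% of counts with the small fraction and 4.09% to 6.12% elsewhere, and their part in the results was not tested. Of 10 markers that define an ovarian carcinoma line, 8 had a mean of at least 1 CPM (a count scaled to a common library depth) over all 24 libraries. KRT19 and MUC16 stayed under 10 counts in every library. That list summed to 2055 to 2249 CPM with the small fraction and 2591 to 2671 CPM with intact senescent medium, and between them 5 of its 8 tested genes fell and 3 rose (edgeR). Fresh (2177 to 2296 CPM), boiled (2167 to 2346 CPM) and pre-treated proliferative libraries (2148 to 2344 CPM) overlapped the small fraction. Proliferative (2297 to 2360 CPM), pre-treated senescent (2355 to 2483 CPM) and large-fraction libraries (2836 to 2912 CPM) lay above it. The fibroblast list, 7 genes, summed to 1894 to 2108 CPM with the small fraction, 1211 to 1271 CPM with intact senescent and 2089 to 2217 CPM with fresh medium. COL1A1, which OVCAR8 libraries held at 1177 CPM or more on average in every group, made up most of it, PDGFRB averaged 92.3 ± 1.39 CPM with the small fraction and 65.4 ± 3.13 CPM with intact senescent medium (SD, n = 3 each), and COL1A2 and DCN stayed under 10 counts in every library. Between these media 2 of its 3 tested genes rose and 0 fell. The summed leukocyte list, 7 genes, reached 14.1 to 15.0 CPM with the small fraction and 7.26 to 13.6 CPM elsewhere, with PTPRC, CD3E, CD68 and LYZ under 10 counts in every library. Against intact senescent medium 1 of 3 tested leukocyte genes rose with the small fraction and 0 fell (edgeR). The endothelial list, 5 genes, summed to 6.16 to 7.63 CPM with the small fraction and 2.85 to 10.3 CPM elsewhere. Of its 3 tested genes 0 rose and 0 fell. The part of these lists in the results was not tested. In bulk RNA of this kind, fewer cells of a type and less RNA per cell cannot be told apart.

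The plot of CPM by medium shows the 5 genes in all 24 libraries. CPM values include the TMM scaling factors. SAMD11 and SEMA3F were read with 93 to 703 and 294 to 899 counts per library. The other 3 genes were sparse, with no library above 80 counts for GDF15, 69 for ANGPTL7 and 43 for RENBP. Under 10 counts were seen in 10 of 24 libraries for GDF15, in 14 for ANGPTL7 and in 12 for RENBP, a depth at which counting error is large. All 5 passed the low-count filter also with the small-fraction libraries left out. On FPKM, which takes gene length into account, the mean levels with the small fraction were 9.70 ± 0.160 for SEMA3F, 9.11 ± 0.504 for SAMD11, 1.60 ± 0.379 for GDF15, 1.26 ± 0.323 for ANGPTL7 and 1.08 ± 0.0651 for RENBP (SD, n = 3 each).

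**Figure D1:**
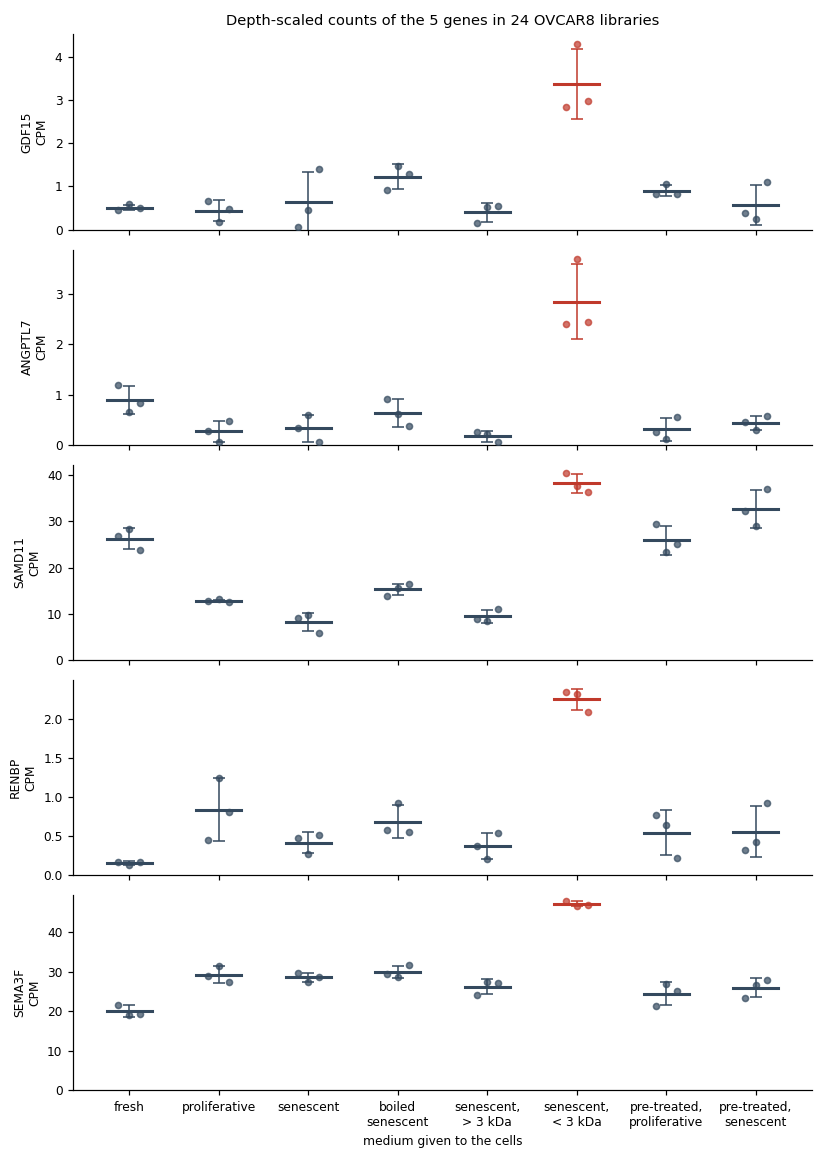
CPM (depth-scaled counts, vertical axes, each from 0) of GDF15, ANGPTL7, SAMD11, RENBP and SEMA3F in each of the 24 libraries, by medium; points are libraries, bars are means of 3 and whiskers are SD, clipped at 0. The 3 small-fraction libraries (red) lie above all 21 others for GDF15, ANGPTL7, RENBP and SEMA3F, while for SAMD11 they overlap the cells pre-treated with senescent medium.

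All 3 small-fraction libraries stood above all 21 others for 4 of the 5 genes, a pattern found in 4.92% of the 19210 genes tested. Having the highest group mean with the small fraction is what chose the genes, and 20.2% of all genes tested share it. The ratio of the mean CPM with the small fraction to that of the next highest group was 3.20 for ANGPTL7, 2.74 for GDF15, 2.69 for RENBP, 1.58 for SEMA3F and 1.17 for SAMD11. Ranked by this ratio among the 19210 genes, ANGPTL7 was number 4, GDF15 number 8, RENBP number 9, SEMA3F number 185 and SAMD11 number 1402. The first 3 are among the largest such ratios and SAMD11 is not, which only describes the levels that chose the genes. Outside the small fraction, no library held over 28 counts of GDF15, 21 of ANGPTL7 or 21 of RENBP, so these ratios carry large counting error.

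GDF15 (ENSG00000130513) spans chr19:18374731-18389176 on the plus strand of GRCh38. Its counts with the small fraction were 46, 80 and 57, or 3.37 ± 0.807 CPM (SD, n = 3). Boiled senescent medium came next with 16, 24 and 28 counts, 1.23 ± 0.286 CPM. Those groups did not overlap each other, nor did the small fraction overlap any other group. Cells pre-treated with proliferative medium had 13, 18 and 15 counts (0.906 ± 0.123 CPM), and cells given intact senescent medium had 1, 7 and 22 (0.644 ± 0.687 CPM). The senescent group thus ran from the lowest count of GDF15 in any library to a level inside the boiled group. Pre-treatment with senescent medium gave 6, 4 and 19 counts (0.575 ± 0.459 CPM), fresh medium 8, 9 and 9 (0.513 ± 0.0674), proliferative medium 12, 3 and 7 (0.440 ± 0.248) and the large fraction 3, 10 and 10 (0.408 ± 0.218). From the boiled medium down, each neighbour in this order overlapped the next.

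As a description, GDF15 with the small fraction was 2.36 higher on the log2 scale than with intact senescent medium, 3.03 higher than with the large fraction, 1.45 higher than with boiled medium, 2.70 higher than with fresh medium and 2.91 higher than with proliferative medium. Without the third senescent library the first of these became 3.63. The summed 183 small-fraction counts had an exact 95% Poisson interval of 157 to 212, against 30 counts (20.2 to 42.8) with intact senescent medium, an interval that covers counting error only. Among the other 7 media, GDF15 passed the threshold in 0 of 11 comparisons with edgeR's quasi-likelihood test, which used Benjamini-Hochberg adjustment over 19210 genes and an adjusted p of 0.05. Closest was boiled medium against the large fraction, at 1.58 ± 0.54 (log2 fold change ± SE, adjusted p = 0.0503, edgeR), where all 3 boiled libraries exceeded the 3 of the large fraction. Over its alternatives the adjusted p ran from 0.0127 to 0.222, and it passed the threshold under 9 of them, DESeq2 among them (adjusted p = 0.0271). Against fresh medium the boiled group differed by 1.25 ± 0.53 (adjusted p = 0.0744, edgeR) and against intact senescent medium by 0.91 ± 0.52 (adjusted p = 0.212). The third senescent library, the one with 22 counts, decided the last value: without it the difference was 2.18 (adjusted p = 0.0068, edgeR), while the other alternatives gave an adjusted p of 0.0993 to 0.651. That library stood apart beyond GDF15. Over genes with at least 10 counts in a pair, chi-square per degree of freedom was 5.70 and 5.69 against the first and second senescent libraries. Between the first and second it was 1.61. Mitochondrial genes took 4.79% of counts in the third, beside 4.09% and 4.12%.

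PGPEP1, which encodes a peptidase, is the nearest gene upstream of GDF15 and lies 4781 bases away on the same strand. It averaged 56.1 ± 5.72 CPM with the small fraction and 40.5 ± 6.48 CPM with intact senescent medium (SD, n = 3 each), a rise of 0.47 ± 0.10 on the log2 scale (edgeR, adjusted p = 0.000594). LRRC25, on the other side, had at most 4 counts in a library.

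ANGPTL7 (ENSG00000171819, chr1:11189341-11195981, plus strand) had 39, 69 and 47 counts with the small fraction, 2.85 ± 0.739 CPM (SD, n = 3). Fresh medium was second with 21, 10 and 15 counts, 0.891 ± 0.271 CPM, and its libraries did not reach the small fraction. Boiled medium followed with 16, 10 and 8 counts (0.635 CPM on average). This order differs from that of GDF15, in which fresh medium was sixth of 8. Each of the remaining groups overlapped the next in order of mean CPM. Pre-treatment with senescent medium had 7, 5 and 10 counts, intact senescent medium 5, 9 and 1, and pre-treatment with proliferative medium 4, 2 and 10. Proliferative medium had 5, 1 and 7 counts, and the large fraction 5, 4 and 1. Pre-treatment with senescent medium did not overlap the large fraction. The log2 difference of the small fraction, given as a description, was 3.09 from intact senescent medium, 3.96 from the large fraction, 3.40 from proliferative medium and 1.66 from fresh medium. The first became 3.81 without the second senescent library, and the third 3.99 without the third proliferative library.

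With edgeR, ANGPTL7 fell against fresh medium in 3 comparisons, which share the fresh libraries. The log2 fold change was -1.74 ± 0.58 with proliferative medium (adjusted p = 0.0146), -1.43 ± 0.57 with senescent medium (adjusted p = 0.049) and -2.30 ± 0.61 with the large fraction (adjusted p = 0.00347). All 3 rest on 10 to 21 counts per fresh library. The call for proliferative medium was lost without the first fresh library (adjusted p = 0.0768, edgeR) or without the second proliferative library (0.112). That for senescent medium was lost without fresh replicate 1 or 3 (0.182 and 0.0785) or senescent replicate 1 or 3 (0.108 and 0.242). Boiled medium against the large fraction stood at 1.78 ± 0.63 (adjusted p = 0.0608, edgeR) and passed the threshold without the third boiled library (2.08, adjusted p = 0.0431), with up to 0.274 under the other alternatives.

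The whole of ANGPTL7 lies inside MTOR, on the opposite strand, and shares 0 exon bases with it. MTOR encodes the kinase of the growth-controlling mTOR complexes. The sources used here do not say whether reads were counted by strand, so reads from MTOR introns and from ANGPTL7 cannot be told apart. MTOR was at 116 ± 3.52 CPM with the small fraction, 103 ± 8.55 with intact senescent medium, 127 ± 3.61 with fresh medium and 87.5 ± 4.01 with proliferative medium (SD, n = 3 each). It was 0.17 ± 0.05 higher with the small fraction than with senescent medium (edgeR, adjusted p = 0.00763) and 0.13 lower than with fresh medium (log2 fold change -0.13, adjusted p = 0.0347). For both genes the highest means were those with fresh medium and with the small fraction. MTOR was highest with fresh medium and ANGPTL7 with the small fraction (2.85 CPM, beside 0.891 CPM with fresh medium). The part of MTOR reads in the ANGPTL7 counts was not tested. NOC2L, a nucleolar gene on the strand opposite SAMD11, shares 378 exon bases with it, and reads there cannot be told apart either. It averaged 90.5 ± 8.47 CPM with the small fraction and 105 ± 5.82 with intact senescent medium. NOC2L fell by 0.21 on the log2 scale (SE 0.06, edgeR, adjusted p = 0.00592), while SAMD11 was higher with the small fraction. The part of the shared reads in the SAMD11 counts was not tested.

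**Figure D2:**
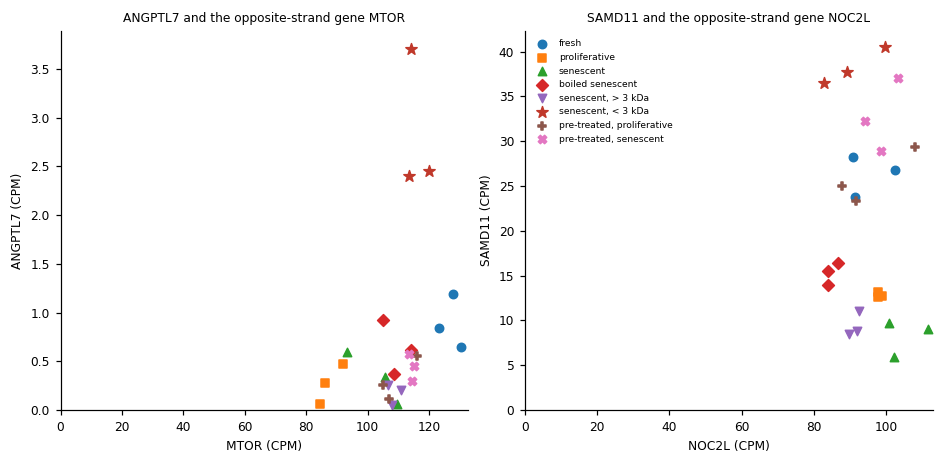
CPM of ANGPTL7 against MTOR (left) and of SAMD11 against NOC2L (right), the genes on the opposite strand, with 1 marker for each of 24 libraries and a shape and colour for each medium. The 3 small-fraction stars lie highest for ANGPTL7, at a mean MTOR level of 116 CPM that only fresh medium exceeded (127 CPM). SAMD11 group means ranged more than 4-fold and NOC2L group means from 84.8 to 105 CPM.

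SAMD11 (ENSG00000187634, chr1:923928-944581, plus strand) had the most calls of the 5 genes among the media that were tested. Its small-fraction counts were 659, 703 and 699, or 38.3 ± 2.09 CPM (SD, n = 3), and pre-treatment with senescent medium gave 503, 478 and 641, or 32.7 ± 4.10 CPM. Those ranges overlapped, so this gene was not set apart by the small fraction. Fresh medium (475, 435 and 425 counts, 26.3 ± 2.31 CPM) and pre-treatment with proliferative medium (459, 401 and 448, 25.9 ± 3.11 CPM) also overlapped each other. Boiled medium had 243, 252 and 355 counts (15.3 ± 1.23 CPM) and proliferative medium 227, 221 and 186 (12.8 ± 0.290 CPM). At the bottom were the large fraction with 169, 162 and 203 (9.45 ± 1.39 CPM) and intact senescent medium with 135, 148 and 93 (8.24 ± 2.03 CPM), which overlapped. Direct exposure to any conditioned medium other than the small fraction thus left SAMD11 below the fresh libraries, with no overlap.

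SAMD11 passed the edgeR threshold in 9 of the 11 comparisons. Against fresh medium it fell by 1.04 with proliferative medium (SE 0.12, adjusted p = 4.44e-09), by 1.67 with senescent medium (SE 0.13, adjusted p = 2.65e-13), by 1.47 with the large fraction (SE 0.12, adjusted p = 2.21e-12) and by 0.78 with boiled medium (SE 0.12, adjusted p = 1.57e-06). Senescent medium lay 0.64 below proliferative medium (log2 fold change -0.64 ± 0.14, edgeR, adjusted p = 0.000439). Boiled medium stood 0.90 ± 0.13 above intact senescent medium (edgeR, adjusted p = 2.18e-06) and 0.70 ± 0.13 above the large fraction (edgeR, adjusted p = 0.000119). The large fraction and intact senescent medium did not pass the test. As a description, the small fraction stood 2.22 above intact senescent medium, 2.02 above the large fraction, 0.54 above fresh medium and 0.22 above cells pre-treated with senescent medium on the log2 scale. When GC content and gene length were corrected for, these differences became 2.12, 1.91, 0.34 and 0.12.

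Pre-treated cells had more SAMD11 RNA than directly exposed cells. The rise was 1.02 ± 0.12 for proliferative medium (edgeR, adjusted p = 2.79e-08) and 1.99 ± 0.13 for senescent medium (adjusted p = 9.59e-16), with no overlap of libraries in either pair. Between the 2 pre-treated groups the log2 fold change was 0.34 ± 0.11 (adjusted p = 0.189, edgeR, unadjusted p = 0.0039), the opposite sign to the direct pair. The difference between these effects was tested after their values had been seen. It was 0.98 ± 0.18 (edgeR, adjusted p = 0.000131), in a contrast that called 13.8% of all genes tested.

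RENBP (ENSG00000102032, chrX:153935263-153944691, minus strand) had 38, 43 and 40 counts with the small fraction, 2.24 ± 0.137 CPM (SD, n = 3), the tightest of the 3 sparse genes. Proliferative medium was second with 8, 21 and 12 counts, 0.835 ± 0.400 CPM. Its highest library still held fewer counts than the lowest of the small fraction. Boiled medium had 10, 15 and 12 counts, pre-treatment with senescent medium 5, 7 and 16, pre-treatment with proliferative medium 12, 11 and 4, intact senescent medium 7, 4 and 8, and the large fraction 7, 4 and 10. Fresh medium was lowest with 3, 2 and 3 counts, 0.156 ± 0.0222 CPM, below every other library of RENBP. The 8 fresh counts in all have an exact Poisson interval of 3.45 to 15.8, so folds against fresh medium rest on few reads.

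RENBP rose against fresh medium with proliferative medium, by 2.35 ± 0.59 on the log2 scale (edgeR, adjusted p = 0.00123), and with boiled medium, by 2.06 ± 0.60 (adjusted p = 0.00815). Senescent medium and the large fraction differed from fresh medium by 1.36 ± 0.67 (adjusted p = 0.113) and 1.21 ± 0.66 (adjusted p = 0.18), short of the threshold. As a description, the small fraction lay 3.78 above fresh, 2.41 above intact senescent, 2.57 above large-fraction and 1.42 above proliferative medium. NAA10, which encodes an amino-terminal acetyltransferase, ends 40 bases from RENBP on the same strand. It had 16.7 ± 2.42 CPM with the small fraction and 15.3 ± 0.357 with intact senescent medium (0.12 ± 0.12, edgeR, adjusted p = 0.436).

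SEMA3F (ENSG00000001617, chr3:50155045-50189075, plus strand) had 779, 869 and 899 counts with the small fraction, or 47.9, 46.7 and 46.9 CPM, the closest agreement between replicates among the 5 genes. Boiled medium had 511, 466 and 687 counts (29.9 ± 1.56 CPM), proliferative medium 517, 531 and 404 (29.2 ± 2.13 CPM) and intact senescent medium 443, 417 and 447 (28.6 ± 1.11 CPM). Those 3 groups overlapped. The large fraction gave 461, 524 and 499 counts (26.2 ± 1.85 CPM), pre-treatment with senescent medium 366, 439 and 483 (26.0 ± 2.31 CPM) and pre-treatment with proliferative medium 332, 463 and 448 (24.4 ± 2.90 CPM). Fresh medium was lowest on average, with 384, 294 and 344 counts (20.0 ± 1.44 CPM), and overlapped the pre-treated proliferative group. As a description, the small fraction was 1.24 above fresh, 0.72 above intact senescent, 0.85 above large-fraction and 0.65 above boiled medium on the log2 scale. Correction for GC content and gene length gave 1.06, 0.62, 0.75 and 0.52.

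Each direct conditioned medium tested against fresh medium raised SEMA3F: by 0.55 ± 0.09 with proliferative medium (edgeR, adjusted p = 2.08e-06), 0.51 ± 0.09 with senescent medium (adjusted p = 1.34e-05), 0.58 ± 0.09 with boiled medium (adjusted p = 1.01e-06) and 0.39 ± 0.09 with the large fraction (adjusted p = 0.000684). These 4 comparisons share the fresh libraries. Against direct proliferative medium, pre-treated cells were lower by a log2 fold change of -0.26 ± 0.09 (adjusted p = 0.0223, edgeR). This call was lost when GC content and gene length were corrected for (adjusted p = 0.0863) and without the second proliferative (0.143) or the first pre-treated proliferative library (0.164). SEMA3F-AS1, on the opposite strand, shares 110 exon bases with SEMA3F and had 20 to 54 counts per library. It differed by -0.03 ± 0.30 between the small fraction and intact senescent medium (edgeR, adjusted p = 0.939).

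Read across the genes, the tested media gave different patterns. Proliferative against fresh medium called 4 of the 5, 2 higher (RENBP, SEMA3F) and 2 lower (ANGPTL7, SAMD11), beside 42.2% of all genes tested (20.6% higher and 21.5% lower). Senescent against fresh called 3 of 5, beside 33.6%, boiled against fresh 3, beside 27.9%, and the large fraction against fresh 3, beside 26.9%. SEMA3F was higher and SAMD11 lower in each of these 4, which share the fresh libraries. For the rest, the counts were 1 of 5 for senescent against proliferative medium (29% of all genes), 1 for boiled against intact senescent medium (25.9%), 1 for boiled medium against the large fraction (11.5%), 2 for pre-treated against direct proliferative medium (26.4%) and 1 for pre-treated against direct senescent medium (42.1%). The large fraction against intact senescent medium called 0 of 5 with edgeR, beside 18.1% of genes, with 0 at an unadjusted p under 0.05 and 0 with DESeq2 or limma. The pre-treated pair called 0 of 5 with edgeR, beside 0.89% of genes, with 1 (SAMD11) at an unadjusted p under 0.05 and 0 with DESeq2 or limma. Counts over so few genes were not tested against these shares.

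**Figure D3:**
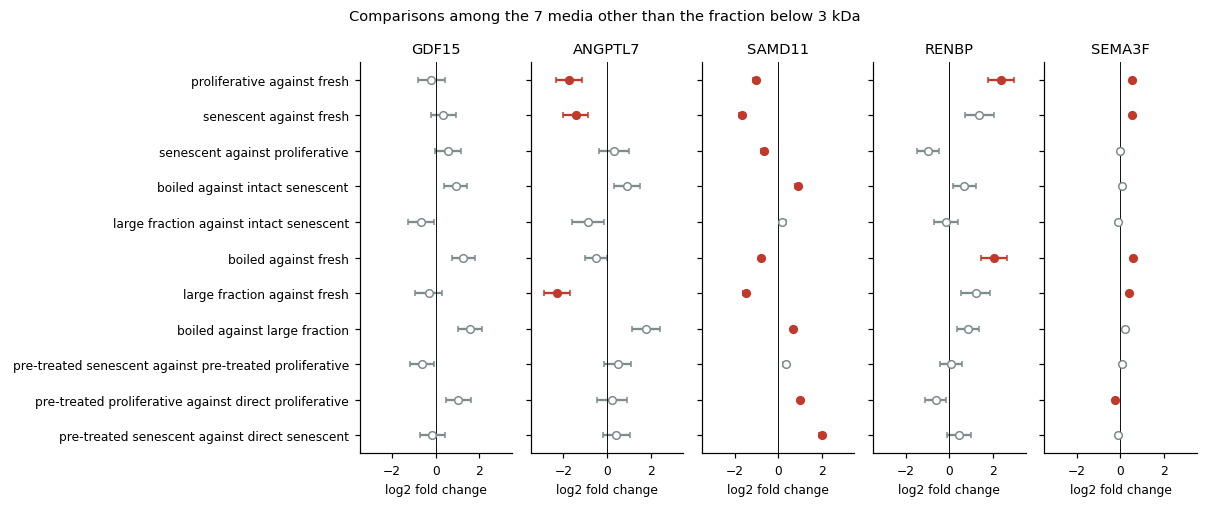
Log2 fold change (horizontal axes) of the 5 genes in the 11 comparisons between the 7 media other than the small fraction, with whiskers of 1 SE and filled red points for an edgeR adjusted p under 0.05. GDF15 has no filled point, SAMD11 has 9, and the whiskers of the sparse GDF15, ANGPTL7 and RENBP are several times those of SAMD11 and SEMA3F.

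Genes tied to the 5 by pathway or family were examined for the small fraction against intact senescent medium with edgeR, none of the 5 being in the lists. Of all 19210 genes tested, 19.9% were higher and 22.7% lower, with a median log2 fold change of 0.03. Those shares are 3822 and 4353 genes, and scaling to library totals alone turned the split into 5090 higher and 3259 lower.

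The integrated stress response list, genes driven by ATF4 and its partners, went mostly down: 12 of 19 fell, 3 rose, and the median was -0.38. DDIT4, an mTOR inhibitor, fell by 1.98 (SE 0.12, edgeR, adjusted p = 9.02e-15) and STC2, a secreted stress hormone, by 1.88 (SE 0.08, adjusted p = 1.99e-21). PSAT1 of serine synthesis and the cystine transporter SLC7A11 fell by 0.81 and 0.70. ATF4 itself fell by 0.57 (SE 0.05, adjusted p = 7.42e-13), from 301 ± 13.7 to 203 ± 13.0 CPM. Among the 3 that rose was NUPR1, a stress-induced chromatin protein, at 2.28 ± 0.31 (adjusted p = 4.25e-08). NUPR1 is also sparse, and averaged 4.48 ± 0.785 CPM with the small fraction, 2.72 ± 0.615 with boiled medium and 0.920 ± 0.245 with intact senescent medium. Its first and second groups are those of GDF15, but NUPR1 was named after its values were seen and most of the list fell. How many genes share this order was not counted.

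Of the list for GDF15 receptors and processing, 2 of 5 tested genes rose: the proprotein convertase FURIN by 0.60 ± 0.07 (edgeR, adjusted p = 8.42e-09) and its relative PCSK5 by 1.33 ± 0.27 (adjusted p = 8.02e-05). GFRAL, the receptor, had at most 1 count in any library, and its co-receptor RET was at 3.73 ± 0.268 CPM with the small fraction and 3.59 ± 0.205 CPM with intact senescent medium. Among 17 other TGF-beta superfamily ligands, 3 rose (TGFB2 by 0.48, BMP8B by 0.41 and INHBA by 0.37) and GDF6 fell by 0.74, with a median of 0.30.

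In the angiopoietin family 1 of 6 genes tested rose and 1 fell, with a median of 0.44. TIE1, a receptor tyrosine kinase best known from endothelium, rose by 0.64 ± 0.14 (edgeR, adjusted p = 0.000163), and ANGPTL4, a lipase inhibitor, fell by 3.33 (SE 0.16, adjusted p = 6.58e-21). ANGPTL4 averaged 1.02 ± 0.280 CPM with the small fraction, its lowest group, against 10.3 ± 0.292 with intact senescent and 2.55 ± 0.409 with fresh medium. Its highest levels, 43.5 ± 3.93 and 38.6 ± 2.59 CPM, came after pre-treatment with proliferative and with senescent medium.

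Among the other class 3 semaphorins and their receptors, 3 of 11 rose and 2 fell (5 and 1 with library totals, 3 and 4 with the GC and length correction). SEMA3G rose by 0.80 ± 0.13 (edgeR, adjusted p = 1.1e-06), the semaphorin receptor PLXND1 by 0.66 ± 0.06 (adjusted p = 2.06e-13) and PLXNA3 by 0.25, while SEMA3D fell by 0.58 (SE 0.21, adjusted p = 0.0208). SEMA3B, another class 3 semaphorin, stood at 61.3 ± 1.83 CPM with the small fraction and 60.8 ± 1.15 with intact senescent medium. NRP2, the main neuropilin for SEMA3F, was low in all media, between 2.46 ± 0.345 CPM with the small fraction and 3.51 ± 0.0907 CPM with fresh medium.

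Around RENBP, 7 of 17 enzymes of amino sugar and sialic acid metabolism fell and 3 rose (median -0.00, or 0.09 with library totals). UAP1 and GNPNAT1, which build UDP-N-acetylglucosamine, each fell by 0.71, and CMAS, which activates sialic acid, fell by 0.43, while the sialidase NEU1 rose by 0.44 (edgeR, adjusted p at most 3.98e-05 for these 4). Of 19 genes of Polycomb complex 1 and SAM domain proteins, chosen for SAMD11, 6 rose and 5 fell (7 and 2 with library totals), with a median of -0.07 (0.02 with library totals). L3MBTL3 rose by 0.48, and BMI1, PHC2 and RNF2 fell by 0.42, 0.38 and 0.26.

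**Figure D4:**
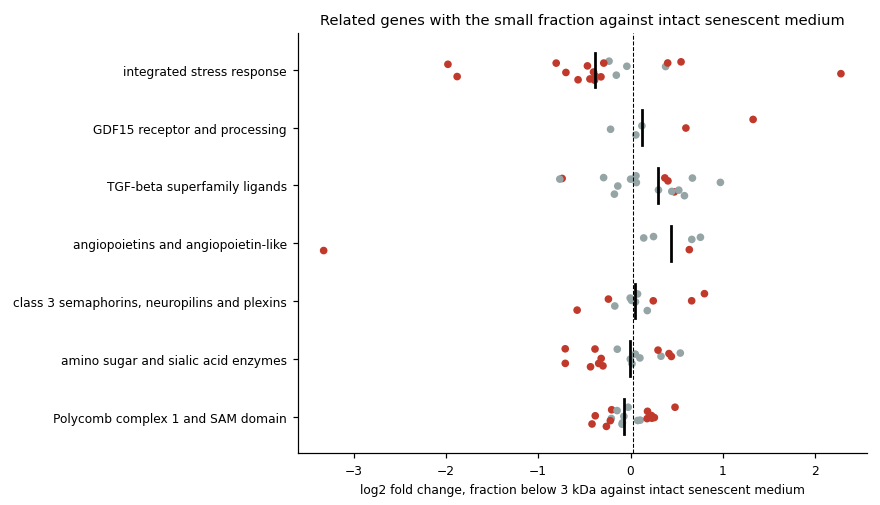
Log2 fold change (horizontal axis) of each tested gene of 7 related lists for the small fraction against intact senescent medium; red points passed an edgeR adjusted p of 0.05, black bars are list medians and the dashed line is the median of all 19210 genes, 0.03. The integrated stress response list has its median at -0.38 with 12 of 19 genes lower and NUPR1 at 2.28, and ANGPTL4 is the single gene at -3.33.

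The genes whose levels most resembled each of the 5 were ranked by Pearson correlation of log2 CPM over the 24 libraries, among 11880 protein-coding candidates with a mean of at least 1 FPKM in a group. The libraries share depth and medium, the 3 small-fraction libraries weigh on every value, and the figures are descriptions. For GDF15 the genes near the top were PCDHGC3 (r = 0.79) and TPCN1 (0.77), with RASL10B and FKBP7 at 0.75 each. ANGPTL7 came nearest to WNK2 (0.83), C5, GPX3, PPM1K and SPARC. Of these GPX3, a secreted glutathione peroxidase, averaged 230 ± 27.1 CPM with the small fraction and 64.9 to 90.9 CPM across the other libraries. SAMD11 was most like DNASE1 (0.95) and SETD1B (0.92), followed by TMEM63A, PPP6R2 and BIVM. RENBP was most like AEBP1 (0.89) and the myosin gene MYO7A (0.88), then SIDT2, SALL2 and ADGRB2. SEMA3F was closest to VPS13D (0.94), PLXND1 (0.92), MYO7A (0.92), GBP2 (0.92) and ATP1B1 (0.91), so that a semaphorin receptor and a gene also near RENBP were in its top 5.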

How the data were processed

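RNA of OVCAR8 cells from 24 polyA libraries (Trizol and column extraction with DNase, NEBNext Ultra 2 kit) was deposited by the authors as 1 table of raw read counts and FPKM per gene, per the file headers. The submitters' processing notes list the build GRCh38, DESeq2 2 and STAR 2.6.1 without roles; the sources used here give no read counter or strand setting. The FPKM the authors deposited equal counts over gene length and a library constant, 0.965 to 1.04 times its total, within a relative tolerance of 1e-04. No 2 replicates agreed within counting noise.

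The 5 genes and the related lists were chosen with earlier results of these data known. The counts went into edgeR 4.0.16 (R 4.3.3; robust quasi-likelihood, TMM factors of 0.958 to 1.03, filterByExpr, 1 mean per group over all 24 libraries, 16 residual degrees of freedom). Tests were two-sided, with Benjamini-Hochberg adjustment over 19210 genes in each comparison, with a threshold of 0.05. The SE of a log2 fold change was taken as its size over the root of the F statistic. Log2 CPM used a prior count of 2. Named genes were the 5, their overlapping or adjacent genes, up to 4 list genes with the largest called changes (small fraction against senescent medium) and a mean of at least 1 FPKM, the receptors and family members of the 5, and the 5 genes most correlated with each. ATF4, NUPR1 and PCSK5 were named after their values were seen. A few related genes and 1 list are not reported here. Positions came from GENCODE 29, and start-site windows from RefSeq on GRCh38.p14, for all 5 genes. Alternatives were relative log expression factors, library totals, DESeq2 1.42.0, limma 3.58.1 on log2(FPKM + 1) and log2(FPKM + 0.1), other filters, no robust estimation, GC and length offsets (GC known for 99.90% of genes), a replicate block, fits of the 2 groups alone and each library left out. Leaving out libraries in the small fraction's descriptive differences was added after the data were seen.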

Additional observations from a re-analysis of the deposited data

Results flagged for a closer look

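The effect of senescent against proliferative medium on SAMD11 differed between direct exposure and pre-treatment by a test of that difference. The log2 fold change was -0.64 ± 0.14 in directly exposed cells, with 3 of 3 senescent libraries below every proliferative library, and 0.34 ± 0.11 in pre-treated cells. The difference was 0.98 ± 0.18 (edgeR, adjusted p = 0.000131), in a contrast chosen after the values of SAMD11 had been seen. The labels do not say which medium the pre-treated cells were in at harvest, so pre-treatment and what came after it cannot be told apart.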

How the results depend on the processing

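No log2 fold change of the 5 genes called in any fit changed direction under the alternatives run. The number of the 5 genes called changed by over 1.5 times in 4 comparisons. For boiled medium against the large fraction it went from 1 to 2 with relative log expression factors, library totals, DESeq2, no low-count filter, a mean of at least 1 FPKM, the replicate block, GC and length offsets with and without the block, and a fit of the 2 groups alone. With 1 library left out it ranged from 1 to 2, reaching 2 without boiled replicate 3. For boiled against intact senescent medium it ranged from 1 to 2, with 2 without senescent replicate 3. For the pre-treated pair it went from 0 to 1 with no low-count filter and with GC and length offsets, with or without the block. For pre-treated against direct proliferative medium it went from 2 to 1 with those offsets, with or without the block, and ranged from 1 to 2 with 1 library left out. Smaller changes were from 4 to 3 for proliferative against fresh medium (a fit of the 2 groups alone, or without fresh replicate 1 or proliferative replicate 2), from 3 to 2 for senescent against fresh medium (no low-count filter, no robust estimation, the replicate block, or without fresh or senescent replicate 1 or 3) and from 3 to 4 for boiled against fresh medium (no low-count filter). The causes were not tested. Of the single-gene values, 422 alternatives stayed on the main fit's side of the threshold, whether called or not called. Another 13 lost a call and 16 gained one. The ANGPTL7 call for senescent against fresh medium was also lost with no low-count filter (adjusted p = 0.054, edgeR), without robust estimation (0.0545) and with the replicate block (0.0584). Deviations from group means showed no consistent pairing by replicate number, though such correlations cannot exclude it. Of 84 pairs of libraries with the same number, 9 had deviations correlated above 0.1 (range -0.28 to 0.51, median -0.01), and 6 of 24 libraries correlated best with their own number. Pairs with different numbers also correlated. The third small-fraction library had r = -0.48 with the first and 0.35 with the second pre-treated proliferative library. For all genes, the pre-treated pair called 120 higher and 51 lower, 220 and 101 with GC and length offsets, and 20 and 15 in a fit of the 2 groups alone. Depth limits GDF15, ANGPTL7 and RENBP, which had under 10 counts in 10 to 14 libraries.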
